A study of Arabidopsis thaliana with 6 samples.

Results

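The genes described here are the nuclear genes that encode the photosystems, their light-harvesting antennae and the electron carriers and ATP synthase subunits that work beside them. They are the entries of the deposited expression table annotated to the KEGG pathways of photosynthesis or of photosynthesis antenna proteins, without those on the chloroplast or mitochondrial genome. The rule gave 70 genes of the 31608 entries in the table. PolyA RNA was sequenced from siliques of Arabidopsis thaliana, the fruits with their developing seeds, at 4 days after pollination. The 6 libraries were 3 of the wild-type accession Col-0 and 3 of the mee45-1 mutant, named mee45 below. MEE45 encodes a B3-domain transcription factor of the REM family, and the labels do not describe the lesion of the allele. The labels call the libraries biological repeats, without saying whether the plants were grown separately. They name the tissue as silique and also as seed. Each value is a mean that the authors took over the 3 libraries, so no spread between libraries can be given.

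The mean depth was 20242476 estimated counts per library in Col-0 and 20530953 in mee45. MEE45 (AT4G00260, chromosome 4, 114971 to 117051 in TAIR10.1) summed to 62 counts in Col-0 and to 3 in mee45. Corrected for depth, mee45 retained 4.77% of the wild-type value (exact 95% binomial interval 0.958% to 14.6%, counting error alone). The verbs rose and fell are kept for genes that the authors' deposited table gives an adjusted p under 0.05. Levels are mean FPKM, which are scaled to transcript length and library size, and changes are log2 ratios of mean FPKM with mee45 as numerator and Col-0 as denominator.

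In the thylakoid membrane of the chloroplast, photosystem II takes electrons from water and passes them through the cytochrome b6f complex and plastocyanin to photosystem I, which reduces ferredoxin. Ferredoxin-NADP reductase then makes NADPH, and the proton gradient drives the ATP synthase. Chlorophyll-binding proteins of the LHCA and LHCB families feed light energy to photosystem I and photosystem II. The core reaction-centre proteins are encoded in the chloroplast, whereas the antenna proteins and many peripheral subunits are encoded in the nucleus. Green silique walls and young green embryos of Arabidopsis both hold photosynthetically active chloroplasts.

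Most of these genes were slightly higher in mee45, and the changes were small. Of the 70 genes, 67 had counts and were tested. Of these, 11 rose and 0 fell in the authors' deposited table at an adjusted p under 0.05. Over all 25434 genes tested, 6.67% rose and 9.15% fell. At an unadjusted p under 0.05 in the authors' deposited table, 25 of the 67 were higher and 3, FD3, CAB2 and LHCB2.2, were lower. At that threshold 11.4% of all genes tested were higher and 13.5% lower. The 11 genes that rose included the plastocyanin genes PETE and DRT112, the ferredoxin genes FD2 and FdC2 and the ATP synthase gene ATPD. The others were the photosystem genes PSAD2 and PSBQ1, the light-harvesting genes LHCA6, LHCB4.2 and CAB1, and the chloroplast NDH complex gene PNSL3. The log2 changes of the 11 genes ran from 0.33 to 0.57, and none reached 1.5-fold.

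The median log2 change was 0.21 over the 66 genes with a fold, with 54 above 0 and 12 below 0. Over all 23437 genes with a fold the median was 0.0037. Of the 70 genes, 65 reached a mean count of 10 in 1 or both genotypes, and their median was 0.20. The summed counts of the whole group made up 2.06% of the total in Col-0 and 2.36% in mee45. In bulk tissue, a change in the share of green cells and a change in the RNA of each cell cannot be told apart.

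These are abundant transcripts. In Col-0, 41 of the 70 genes exceeded 100 FPKM, and 11 were among the 100 entries with the highest FPKM. PSBR (AT1G79040), a small subunit of photosystem II, was the highest of the group at 2239 FPKM in Col-0 and 2304 in mee45. At the other end, FD4 (AT5G10000), AT4G37230 and AT2G07738 had no counts in either genotype. AT5G28450, annotated as a light-harvesting protein, had 0 summed counts in Col-0 and 2 in mee45, too few for a fold. YMF19 (AT2G07707), a copy on chromosome 2 of a mitochondrial ATP synthase gene, had 4 and 11 summed counts. At that depth the YMF19 ratio could not be placed, as its 95% counting interval ran from -0.32 to 3.55 on the log2 scale.

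**Figure D1:**
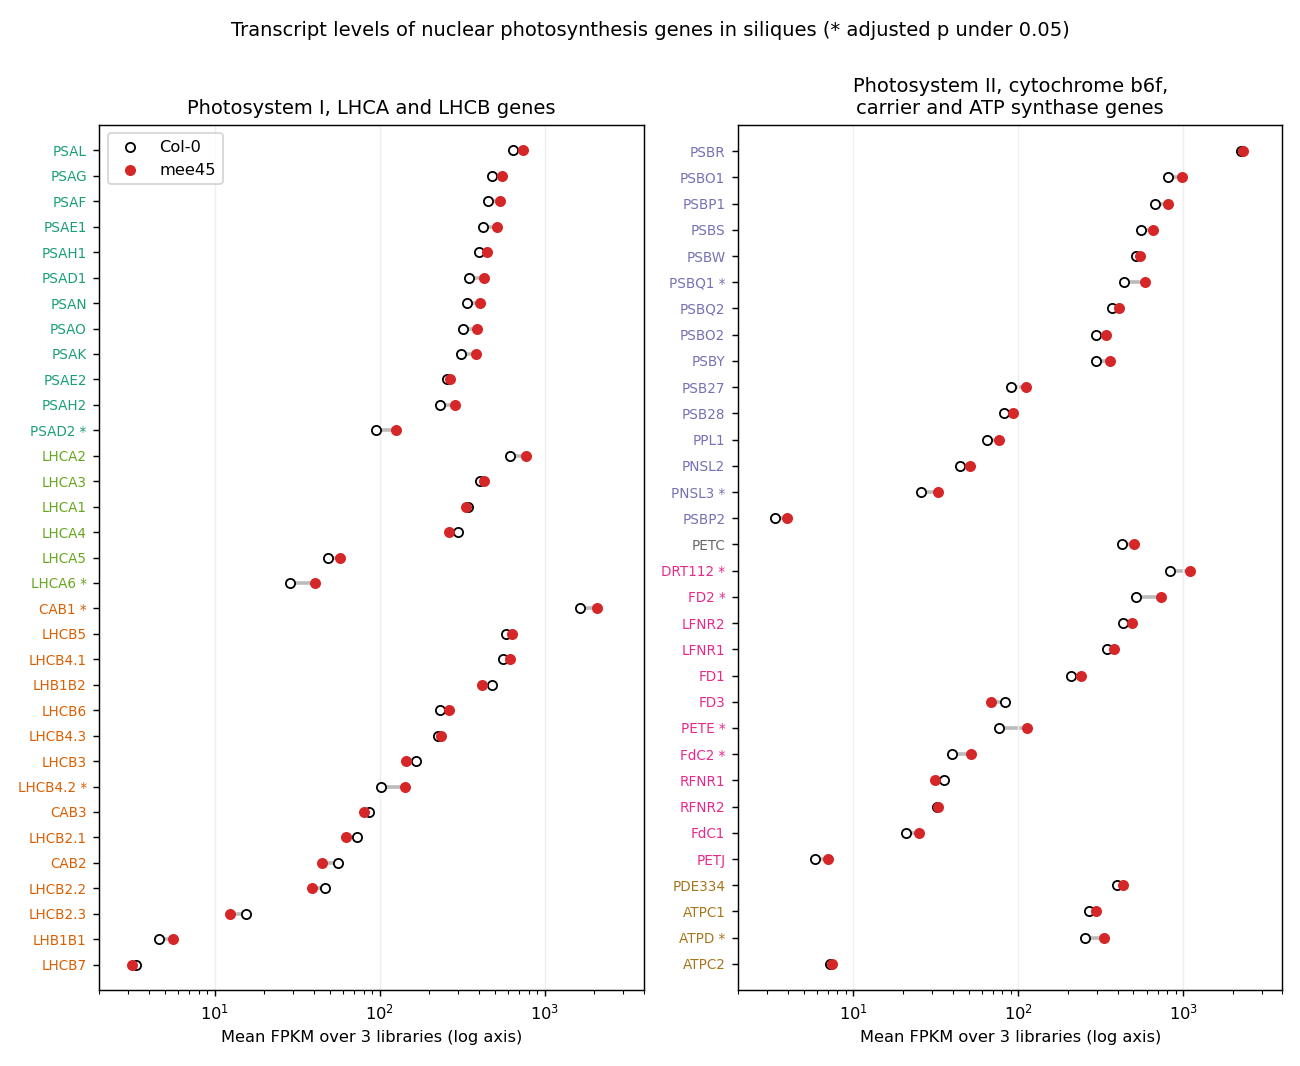
Mean FPKM in Col-0 (open circles) and mee45 (red circles) on a log axis for the 65 genes with a mean count of at least 10 in the higher genotype; each point is the authors' mean over 3 libraries, label colours mark the complex, and asterisks mark the 11 genes that rose. Most red circles lie slightly to the right of the open ones, while those of LHCB2.1, LHCB2.2, LHCB2.3, LHCB3, LHCA4, CAB2, FD3 and others lie to the left.

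Subunits of photosystem I were all above 0. The 12 genes, all tested, had log2 changes from 0.05 to 0.40 with a median of 0.26. Of these 12, 1 rose and 0 fell, against 6.67% and 9.15% of all genes tested. Levels of the 12 genes in Col-0 ran from 94.8 to 647 FPKM. PSAD2 (AT1G03130), which encodes a copy of the stromal subunit that docks ferredoxin, had 94.8 FPKM in Col-0 and 125 in mee45. This was a log2 change of 0.40 (adjusted p = 0.0165, authors' deposited table). Its copy PSAD1 (AT4G02770) was more abundant, at 346 FPKM in Col-0 and 427 in mee45, and its log2 change of 0.30 did not pass the test (adjusted p = 0.0665, authors' deposited table). The coding sequences of the PsaD genes were 86.3% identical, so some reads may be shared.

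The photosystem I genes with the highest levels, PSAL, PSAG and PSAF, did not pass the test. PSAL (AT4G12800), needed for docking of mobile antenna to photosystem I, had 647 FPKM in Col-0 and 739 in mee45. PSAG (AT1G55670), a small membrane subunit, had 481 and 550 FPKM. PSAF (AT1G31330), which takes part in binding plastocyanin, had 452 and 539 FPKM. Their log2 changes were 0.19, 0.19 and 0.26. The smallest change was that of PSAE2 (AT2G20260), at 0.05, with 256 FPKM in Col-0 and 266 in mee45. Its copy PSAE1 was at 0.27, so the copies of the PsaE stromal subunit stood 0.22 apart, a difference that was not tested.

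The photosystem II group, as formed from KEGG, includes the chloroplast NDH complex genes PNSL2 and PNSL3. Its 15 tested genes were likewise all above 0. Of these, 2 rose and 0 fell, against 6.67% and 9.15% of all genes tested. The median log2 change of the 15 was 0.24 and the range 0.04 to 0.41. PSBQ1 (AT4G21280), which encodes a lumenal protein of the oxygen-evolving complex, had 438 FPKM in Col-0 and 584 in mee45. The log2 change of PSBQ1 was 0.41 (adjusted p = 0.0118, authors' deposited table). Its copy PSBQ2 (AT4G05180) had 370 and 406 FPKM, a log2 change of 0.13 that did not pass the test. PSBQ1 therefore made up 49.9% of the summed FPKM of the 4 genes that KEGG groups with PsbQ in Col-0 and 54.4% in mee45. PNSL3 (AT3G01440), which KEGG places with PsbQ, encodes a lumenal subunit of the chloroplast NDH complex and had 25.9 and 32.6 FPKM. Its log2 change of 0.33 passed the test narrowly (adjusted p = 0.0495, authors' deposited table).

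The most abundant photosystem II genes did not pass the test. PSBO1 (AT5G66570), the main copy of the manganese-stabilising protein, had 808 FPKM in Col-0 and 989 in mee45, a log2 change of 0.29. PSBP1 (AT1G06680), another protein of the oxygen-evolving complex, had 677 and 808 FPKM and a log2 change of 0.26. Their adjusted p-values in the authors' deposited table were 0.0887 and 0.138. PSBS (AT1G44575), the sensor of lumen acidity in non-photochemical quenching, had 552 and 657 FPKM and a log2 change of 0.25. PSBR had the smallest change of the photosystem II genes, 0.04, at the highest level. The scarce copy PSBP2 (AT2G30790), at 3.36 and 3.98 FPKM, had a log2 change of 0.24 with a 95% counting interval of -0.05 to 0.53.

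The electron carriers held the largest share of genes that rose, 4 of the 12 tested, with 0 lower. Over all genes tested, 6.67% rose. The shares of the complexes rest on few genes, and no difference between the complexes was tested. Both plastocyanin genes rose. PETE (AT1G76100), named PETE1 in RefSeq, had 76.3 FPKM in Col-0 and 113 in mee45. Its log2 change of 0.57 was the largest among genes with a mean count of at least 10 (adjusted p = 0.000101, authors' deposited table). DRT112 (AT1G20340), the PETE2 gene, was more abundant, at 838 FPKM in Col-0 and 1100 in mee45. The log2 change of DRT112 was 0.39 (adjusted p = 0.00932, authors' deposited table). DRT112 made up 91.7% of plastocyanin FPKM in Col-0 and 90.7% in mee45, so the make-up of the pair hardly moved. The pair had coding sequences 72.9% identical.

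Of the ferredoxin and ferredoxin-NADP reductase genes with leaf-type and root-type copies, FD2 was the one that rose. FD2 (AT1G60950), the main leaf ferredoxin, had 521 FPKM in Col-0 and 732 in mee45. It rose by 0.49 (adjusted p = 0.0031, authors' deposited table). The other leaf-type genes FD1, LFNR1 and LFNR2 had log2 changes of 0.19, 0.14 and 0.18 and did not pass the test, LFNR2 (AT1G20020) having 435 and 492 FPKM. FD3 (AT2G27510), the root-type ferredoxin, had 82.8 FPKM in Col-0 and 68.2 in mee45. The FD3 change of -0.28 was the lowest among the carriers (adjusted p = 0.0929, authors' deposited table). The root-type reductases RFNR1 and RFNR2 stood at -0.19 and 0.02. Summed, the 4 leaf-type genes went from 1511 to 1843 FPKM and the 3 root-type genes from 151 to 132 FPKM. The types were set side by side after their values were seen, and whether they differ in their change was not tested.

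The ferredoxin-like gene AT4G14890 also rose. The deposited table gives it the symbol FdC2, while its description and RefSeq call it FdC1. It had 39.7 FPKM in Col-0 and 51.6 in mee45, a log2 change of 0.38 (adjusted p = 0.0209, authors' deposited table). AT1G32550, whose symbols are exchanged in the same way, had 20.8 and 25.2 FPKM and a log2 change of 0.27 that did not pass the test. PETJ (AT5G45040), a cytochrome c6-like protein, was scarce at 5.87 and 7.01 FPKM, with a counting interval of 0.02 to 0.49 around its log2 change of 0.25. That interval holds no spread between libraries, and PETJ did not pass the test (adjusted p = 0.592, authors' deposited table).

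Of the cytochrome b6f complex, PETC was the one nuclear gene covered. PETC (AT4G03280), the Rieske iron-sulfur protein, had 428 FPKM in Col-0 and 504 in mee45. Its log2 change of 0.24 did not pass the test (adjusted p = 0.207, authors' deposited table). Of 5 tested ATP synthase genes, 1 rose and 0 fell, against 6.67% and 9.15% of all genes tested. ATPD (AT4G09650), the delta subunit, had 253 FPKM in Col-0 and 333 in mee45. The log2 change of ATPD was 0.40 (adjusted p = 0.00871, authors' deposited table). PDE334 (AT4G32260), a b-type subunit, had 395 and 430 FPKM, and ATPC1 (AT4G04640), the main gamma subunit, 269 and 294 FPKM. Their log2 changes of 0.12 and 0.13 did not pass the test. ATPC2 (AT1G15700), a scarce second gamma gene, was at 0.05 with 7.25 and 7.48 FPKM.

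**Figure D2:**
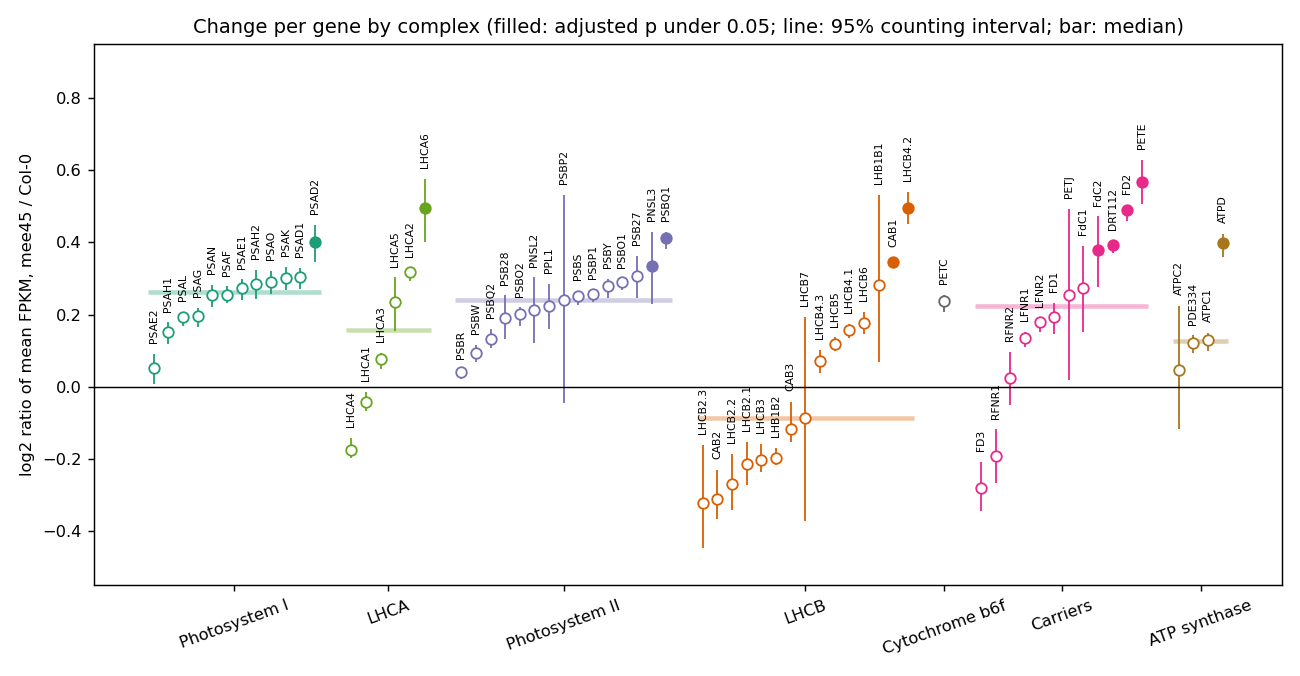
The log2 change in mean FPKM from Col-0 to mee45 for the same 65 genes, ordered within each complex; filled circles passed an adjusted p under 0.05, thin lines are 95% counting intervals that hold no spread between libraries, and pale bars are medians. All photosystem I and photosystem II genes lie above 0, whereas 8 of the 15 LHCB genes lie below 0.

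The light-harvesting genes of photosystem I were mixed. Of 7 tested LHCA genes, 1 rose and 0 fell, against 6.67% and 9.15% of all genes tested. Of the 6 LHCA genes with a fold, 4 were above 0 and 2 below. LHCA2 (AT3G61470), a main antenna protein, had 618 FPKM in Col-0 and 770 in mee45, a log2 change of 0.32 (adjusted p = 0.0732, authors' deposited table). LHCA3 (AT1G61520) had 406 and 428 FPKM, and LHCA1 (AT3G54890) 345 and 335 FPKM. Their log2 changes were 0.08 and -0.04. LHCA4 (AT3G47470), the partner of LHCA1 in a heterodimer, had 299 FPKM in Col-0 and 265 in mee45, a log2 change of -0.17 that did not pass the test. LHCA6 (AT1G19150), which helps link photosystem I to the NDH complex, was scarcer, at 28.7 and 40.5 FPKM. LHCA6 rose by 0.50 (adjusted p = 0.00525, authors' deposited table).

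The LHCB genes were mixed. LHCB1, LHCB2 and LHCB3 form the trimers of the major antenna, and 7 of their 9 genes had log2 changes below 0, with a median of -0.20. LHCB4, LHCB5 and LHCB6 are monomers that link the trimers to the core, and all 5 of their genes were above 0, with a median of 0.16. By summed level the subsets moved alike, from 2568 to 2891 FPKM for the trimer genes and from 1700 to 1897 FPKM for the monomer genes, log2 changes of 0.17 and 0.16. The trimer sum is mostly CAB1. LHCB7 (AT1G76570), a scarce gene in neither subset, had 3.34 and 3.15 FPKM and a log2 change of -0.09. Over the 15 LHCB genes, 2 rose and 0 fell, against 6.67% and 9.15% of all genes tested. At an unadjusted p under 0.05 in the authors' deposited table, 2 LHCB genes were higher and 2, CAB2 and LHCB2.2, were lower. Over all genes tested, 11.4% were higher and 13.5% lower at that threshold. The subsets were chosen after the values were seen, and no difference between them was tested.

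Among the monomers, LHCB4.2 (AT3G08940) had 101 FPKM in Col-0 and 143 in mee45. It rose by 0.50 (adjusted p = 0.00174, authors' deposited table). LHCB4.1 (AT5G01530), the more abundant copy of the same protein, CP29, had 556 and 620 FPKM and a log2 change of 0.16. LHCB5 (AT4G10340), or CP26, had 584 and 634 FPKM and a log2 change of 0.12. Neither passed the test. LHCB4.2 made up 11.5% of LHCB4 FPKM in Col-0 and 14.3% in mee45.

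Among the trimer proteins, the lowest value was that of LHCB2.3 (AT3G27690), with 15.6 FPKM in Col-0 and 12.4 in mee45. Its log2 change was -0.32 (adjusted p = 0.384, authors' deposited table). LHCB2.1 and LHCB2.2 were at -0.21 and -0.27, with levels of 72.7 and 46.7 FPKM in Col-0 and 62.7 and 38.7 in mee45. LHCB3 had 166 and 145 FPKM, a log2 change of -0.20. None of these 4 genes passed the test. The coding sequences of LHCB2.1 and LHCB2.2 were 96.6% identical, and their summed FPKM went from 119 to 101, a log2 change of -0.23.

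LHCB1 is encoded by 5 genes. CAB1 (AT1G29930), CAB2 (AT1G29920) and CAB3 (AT1G29910) lie side by side on chromosome 1 between 10472280 and 10479114 in TAIR10.1, each as 1 exon. LHB1B1 (AT2G34430) and LHB1B2 (AT2G34420) are neighbours on chromosome 2. CAB1 had 1641 FPKM in Col-0 and 2084 in mee45. It rose by 0.34 (adjusted p = 0.0328, authors' deposited table). CAB2 had 55.6 and 44.9 FPKM and a log2 change of -0.31, and CAB3 had 86.6 and 79.9 FPKM and a log2 change of -0.12. LHB1B2 had 479 and 418 FPKM and a log2 change of -0.20, and LHB1B1, at 4.58 and 5.58 FPKM, was at 0.28. Only CAB1 of the 5 passed the test.

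The LHCB1 copies are so alike that the division of reads among them is uncertain. Over 804 coding bases, CAB2 differed from CAB1 at 31 and CAB3 at 29, which is 96.1% and 96.4% identity in alignment. Coding bases 25 to 84 are shown for these 3 copies, 5′ to 3′ on the coding strand in TAIR10.1, because this stretch of 60 bases holds the most differences. Capitals mark bases that differ from CAB1, of which CAB2 has 7 and CAB3 has 5.
CAB1 (chr1:10478095-10478154, plus strand): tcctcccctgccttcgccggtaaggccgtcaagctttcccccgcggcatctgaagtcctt
CAB2 (chr1:10475809-10475868, minus strand): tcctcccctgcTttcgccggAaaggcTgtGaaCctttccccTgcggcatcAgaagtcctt
CAB3 (chr1:10473163-10473222, minus strand): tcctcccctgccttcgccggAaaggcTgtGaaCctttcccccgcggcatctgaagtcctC
Summed over the 5 genes, LHCB1 had 2267 FPKM in Col-0 and 2632 in mee45, a log2 change of 0.22. CAB1 made up 72.4% of that sum in Col-0 and 79.2% in mee45, and LHB1B2 21.1% and 15.9%. The summed mean counts of the 5 genes, which do not depend on how reads were divided within the family, were 47955 in Col-0 and 56536 in mee45. As a share of all counts this was also a log2 change of 0.22, and no test of it can be made from genotype means.

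**Figure D3:**
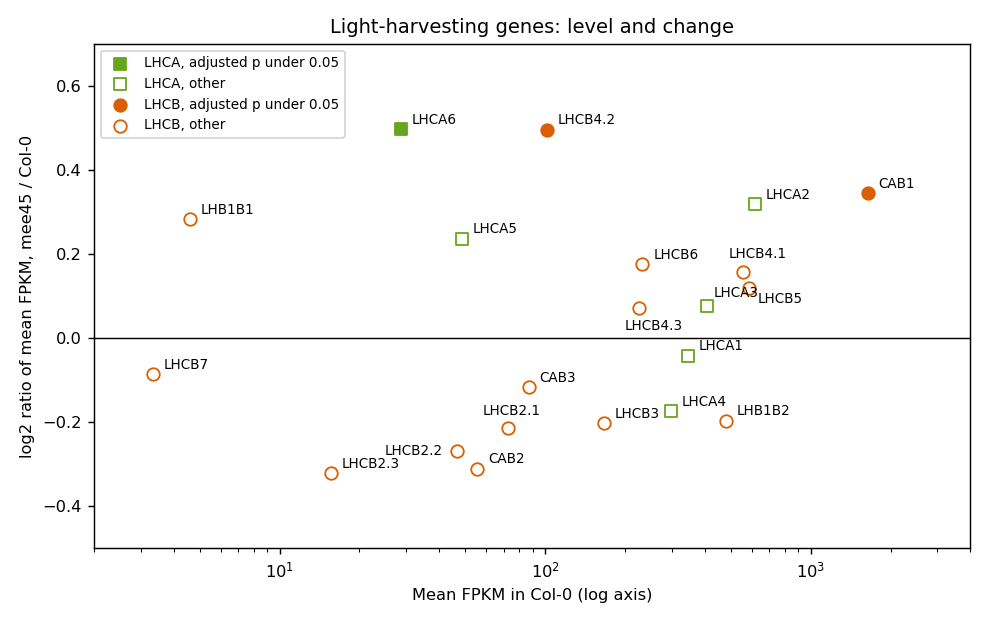
Mean FPKM in Col-0 (log axis) against the log2 change in mean FPKM from Col-0 to mee45 for 6 LHCA genes (squares) and 15 LHCB genes (circles); filled symbols passed an adjusted p under 0.05. CAB1 stands at the highest level, while the LHCB2 genes, LHCB3, LHCA4, LHB1B2, CAB2 and CAB3 lie below 0.

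At like depth the picture was the same. Of the 59 genes of the group with at least 300 mean counts in Col-0, 49 were above 0, or 83.1%, against 48.6% of the 12056 genes of the table at that depth. Their medians were 0.20 and -0.0059. Subunit and carrier genes lay nearly all above 0, with FD3 and RFNR1 as the exceptions, while many LHCA and LHCB genes lay below it. These counts describe the genotype means and carry no test, since genes are not replicates.

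**Figure D4:**
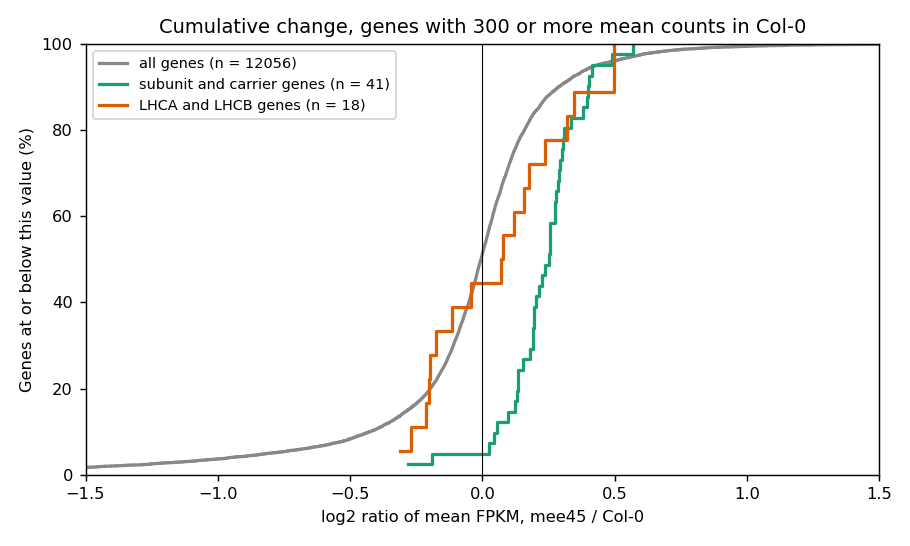
Cumulative percentage of genes against the log2 change in mean FPKM from Col-0 to mee45 for genes with at least 300 mean counts in Col-0: all genes in the table (grey, n = 12056), subunit and carrier genes (green, n = 41) and LHCA and LHCB genes (orange, n = 18). The green curve lies to the right of the grey one over most of its length, and the orange curve crosses 0 at a height close to that of the grey curve.

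The upstream sequences of the group were searched for motifs known from light-regulated plant promoters. The window was the 250 bases before the RefSeq gene start in TAIR10.1, on both strands, and all 70 genes had a window. The G-box, CACGTG, is bound by bZIP and bHLH factors such as HY5 and the PIF proteins. It was in 14 windows, or 20%, against 6.49% of 27443 windows of nuclear protein-coding genes. The I-box, GATAAG, was in 16 windows, or 22.9%, against 12.3%. CCAATC, a short motif linked to GLK factors, was also in 16, against 10.2%. A TATA box, TATAAA, was in 40% against 47.3%. Among LHCB genes CCAATC was in 7 of 15 windows, among LHCA genes in 3 of 7 and among photosystem II genes in 3 of 17. It was in 1 of 13 carrier windows, 1 of 5 ATP synthase windows, the PETC window and 0 of 12 windows of photosystem I subunits. No difference between the complexes was tested. Of the 11 genes that rose, 5 held CCAATC, 3 the I-box and 2 the G-box, and of the 59 others 11, 13 and 12 did. CCAATC was also in the windows of LHCA1, LHCA4, LHB1B2, LHCB2.1, LHCB2.2 and LHCB2.3, whose log2 changes were below 0. Whether any motif goes with the change was not tested.

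Of the genes that rose, 6 hold CCAATC or a G-box, and the windows of 5 of them are shown for that reason. PNSL3, whose CCAATC lies 235 bases before its start, is not shown. They run 5′ to 3′ on the gene's strand up to the base before the annotated start, and capitals mark any of the 4 motifs on either strand.
DRT112 (chr1:7043393-7043642, minus strand): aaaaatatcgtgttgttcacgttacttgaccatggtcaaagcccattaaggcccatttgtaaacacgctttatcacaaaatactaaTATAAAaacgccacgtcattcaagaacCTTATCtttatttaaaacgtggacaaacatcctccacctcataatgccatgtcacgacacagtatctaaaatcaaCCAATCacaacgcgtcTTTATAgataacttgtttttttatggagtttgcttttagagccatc
LHCB4.2 (chr3:2717307-2717556, plus strand): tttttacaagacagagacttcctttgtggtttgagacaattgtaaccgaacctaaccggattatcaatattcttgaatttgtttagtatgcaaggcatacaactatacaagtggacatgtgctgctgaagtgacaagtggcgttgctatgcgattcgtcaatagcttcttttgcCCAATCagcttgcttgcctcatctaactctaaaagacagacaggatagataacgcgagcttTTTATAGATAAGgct
CAB1 (chr1:10477635-10477884, plus strand): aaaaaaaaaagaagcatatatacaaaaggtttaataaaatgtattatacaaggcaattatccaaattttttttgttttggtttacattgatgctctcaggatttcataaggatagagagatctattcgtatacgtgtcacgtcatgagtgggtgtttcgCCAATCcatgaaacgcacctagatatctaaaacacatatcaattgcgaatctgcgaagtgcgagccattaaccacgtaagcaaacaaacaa
ATPD (chr4:6100464-6100713, plus strand): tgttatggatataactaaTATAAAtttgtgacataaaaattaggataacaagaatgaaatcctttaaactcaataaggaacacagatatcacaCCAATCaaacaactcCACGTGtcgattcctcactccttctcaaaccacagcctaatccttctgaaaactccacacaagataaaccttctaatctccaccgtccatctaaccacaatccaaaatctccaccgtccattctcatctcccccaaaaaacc
PSBQ1 (chr4:11334102-11334351, plus strand): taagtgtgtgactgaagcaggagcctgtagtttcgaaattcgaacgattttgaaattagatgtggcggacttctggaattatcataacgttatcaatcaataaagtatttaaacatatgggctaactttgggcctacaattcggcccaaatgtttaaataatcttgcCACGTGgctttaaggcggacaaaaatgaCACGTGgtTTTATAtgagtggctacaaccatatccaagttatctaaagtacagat
DRT112 and LHCB4.2 hold CCAATC, the I-box and a match to TATAAA. In LHCB4.2 that match is on the opposite strand, read here as TTTATA, and it directly precedes the I-box without overlap. CCAATC begins 62 bases before the start in DRT112, 76 in LHCB4.2 and 91 in CAB1. ATPD holds CCAATC at 157 bases and a G-box at 142 bases before its start. PSBQ1 holds G-boxes at 83 and 55 bases. A match is a description of the letters in the window and not a binding site.

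**Figure D5:**
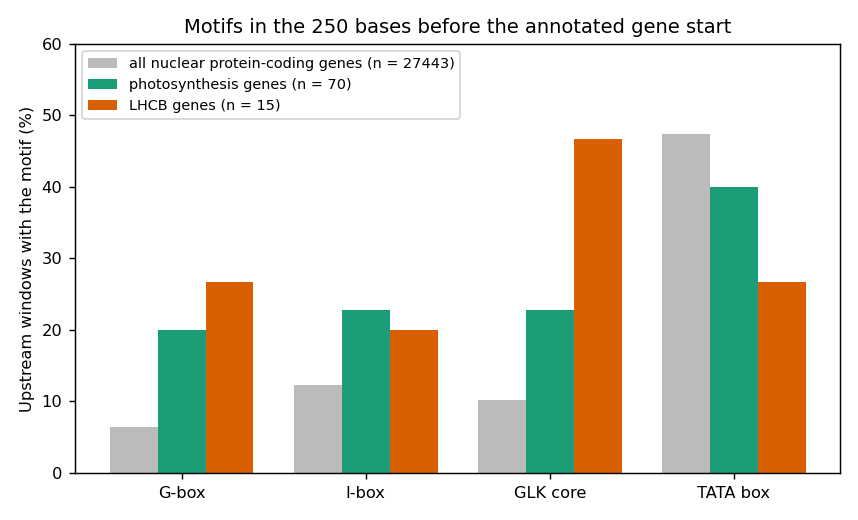
Percentage of upstream windows of 250 bases that hold each motif on either strand, for all nuclear protein-coding genes (grey, n = 27443), the 70 photosynthesis genes (green) and the 15 LHCB genes (orange). The G-box is in 20% of the photosynthesis windows against 6.49% of all, and the GLK core motif in 22.9% against 10.2%.

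Genes that regulate, assemble or protect the photosystems were described from 4 lists of 54 further genes, all of them tested. Of these, 10 rose and 2 fell, with a median log2 change of 0.18. Over all genes tested, 6.67% rose and 9.15% fell, and the median over all genes with a fold was 0.0037. Of 11 regulators, 2 rose and 1 fell, with a median log2 change of 0.38. GLK2 (AT5G44190), a transcription factor that activates photosynthesis genes, had 12.4 FPKM in Col-0 and 19.98 in mee45. GLK2 rose by 0.68 (adjusted p = 0.0038, authors' deposited table). Its relative GLK1 stood at 3.38 and 3.36 FPKM, a log2 change of -0.01. Of the sigma factors of chloroplast RNA polymerase, SIG2 (AT1G08540) rose by 0.38. SIG5 (AT5G24120), which responds to light and stress, fell by 0.44. HY5 (AT5G11260), a light-signalling bZIP factor, was at 0.04 and did not pass the test. The regulators CGA1, GNC, PIF1, PIF3, SIG1 and SIG6 had log2 changes of 0.57, 0.48, 0.42, 0.41, 0.30 and 0.20. None of these passed the test either.

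Of 16 genes for assembly and delivery of photosystem proteins, 3 rose and 0 fell, against 6.67% and 9.15% of all genes tested. CAO (AT2G47450), the chloroplast signal recognition particle protein cpSRP43 that carries LHC proteins to the thylakoid, went from 47.9 to 65.0 FPKM. CAO rose by 0.44 (adjusted p = 0.0023, authors' deposited table). LTD (AT1G50900), which hands imported LHC proteins to that particle, rose by 0.32. HCF101 (AT3G24430), needed for the iron-sulfur clusters of photosystem I, also rose by 0.32 (adjusted p = 0.0495, authors' deposited table).

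Of 14 light-acclimation and photoprotection genes, 1 rose and 1 fell, against 6.67% and 9.15% of all genes tested. LIL3:1 (AT4G17600), a light-harvesting-like protein that supports chlorophyll synthesis, rose by 0.51. ELIP2 (AT4G14690), an early light-induced protein made under light stress, had 73.8 FPKM in Col-0 and 44.5 in mee45, and fell by 0.73. The adjusted p-values of LIL3:1 and ELIP2 in the authors' deposited table were 0.000184 and 0.000159. ELIP1 was at -0.07 and did not pass the test. Of 13 genes of cyclic electron flow, without PNSL2 and PNSL3 that were counted with photosystem II, 4 rose and 0 fell. All 4 encode subunits of the NDH complex, which returns electrons from ferredoxin to plastoquinone. PNSL1 (AT2G39470), NDHU (AT5G21430) and NDHN (AT5G58260) rose by 0.39, 0.41 and 0.40, and NDHM (AT4G37925) by 0.35. PGR5 and PGRL1A, of the other route of cyclic flow, had log2 changes of -0.04 and -0.0054.

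Markers of the tissues in a silique moved in the same comparison, in which 6.67% of all genes tested rose and 9.15% fell. Of 7 embryo markers, 6 fell and 0 rose, and their summed level went from 158 to 78.1 FPKM. Of 7 regulators listed as silique wall markers, IND, SHP1, SHP2, FUL, ALC, RPL and SPT, 2 rose and 2 fell, with sums of 431 and 444 FPKM. The most abundant were SHP2, at 169 FPKM in Col-0 and 134 in mee45, and SHP1, at 89.6 and 119. Whether their sum follows the green cells of the wall was not tested. Of 6 endosperm markers, 3 rose and 2 fell, with sums of 65.3 and 58.8 FPKM. Of 7 seed coat markers, 2 rose and 3 fell, with sums of 1039 and 891 FPKM. Of 4 pollen and anther markers, 0 rose and 1 fell, with sums of 92.0 and 123 FPKM. Median log2 changes were -0.69 for embryo, 0.17 for silique wall, 0.44 for endosperm, 0.07 for seed coat and -0.60 for pollen and anther markers. For endosperm, seed coat, and pollen and anther markers, the sum and the median went opposite ways. The sums rest mostly on the most abundant genes of each list, and A9, an anther marker, had mean counts of 1 and 0.33. All of these markers had counts in both genotypes. Their part in the changes of the photosynthesis genes was not tested.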

How the data were processed

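PolyA RNA was sequenced from 3 Col-0 and 3 mee45 libraries. Listed in the submitters' processing notes, with no role given, are TopHat2 2.0.3.12, RSEM, Bowtie2 2.2.8, edgeR, fastp 0.18.0, Cufflinks and the genome build TAIR10. Per the file headers, the authors deposited estimated counts and FPKM per genotype. These are means over libraries, as 95.8% of the Col-0 counts are whole multiples of a 3rd within 0.01. The authors' deposited table holds a log2 fold change, a p-value and an adjusted p-value for each gene. The last equals a Benjamini-Hochberg adjustment over 25434 genes with counts.

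Genotype means allow no new test, so calls are those of the authors' deposited table, and p-values measure the spread between libraries that may be technical. Log2 ratios of mean FPKM were taken where both genotypes had counts and the higher had more than 3 summed counts. Counting intervals are exact binomial on summed counts rounded to whole numbers, and cover counting error only, since reads copied by PCR are not independent molecules. Genes were grouped by the KEGG orthology in the table. Named genes are those called, the 3 with the highest mean FPKM per complex, and the largest and smallest change per complex with a mean count of at least 10; of related lists, up to 3 called genes with the smallest p. GLK1, HY5, the other uncalled regulators, ELIP1, NDHM, PGR5, PGRL1A, single tissue markers and further group members were named after their values were seen. Members, lists and tests were chosen with earlier results of these data known.

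All 70 genes matched RefSeq (TAIR10.1), which gave symbols missing from the table, coordinates and sequences. Coding sequences were aligned globally with Biopython 1.88 (match 1, mismatch -1, gap opening -3, extension -0.5), taking the most similar isoforms. Calculations used Python 3.11.15, pandas 2.3.3 and SciPy 1.17.1 and were checked on simulated data. The authors' 4 tables of genes past a fold threshold repeat rows of the whole table and were not used.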

Additional observations from a re-analysis of the deposited data

How the results depend on the processing

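No paired analysis was possible because the values are averages over each genotype's libraries; for the same reason the planned DESeq2, edgeR, size-factor, replicate block and leave-one-out alternatives were not run. The count of 11 genes higher was 6 at an adjusted p under 0.01, 25 at an unadjusted p under 0.05, 0 with at least 1.5-fold and 12 when p was adjusted again over genes with a mean count of 10 or more. The count of 0 lower was 3 at an unadjusted p under 0.05 in the authors' deposited table and 0 in the other settings tried. The 12 related genes called were 4 at an adjusted p under 0.01. The log2 ratio of the group's share of counts, 0.20, was 0.21 by summed FPKM, 0.19 by the median ratio, 0.18 without the 5 most abundant genes and, chosen after seeing the data, 0.22 without LHCA and LHCB genes. The median change stayed between 0.20 and 0.22 under the scalings, pseudocounts and filters tried. It did so too with similar copies summed, a setting that was also added after seeing the data. Copies were linked through pairs at least 90% identical, which joined all 5 LHCB1 genes although some of their pairs were less alike. No spread between libraries could be computed.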

Other observations

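The 30 entries of the same KEGG pathways on the chloroplast genome were outside the rule, and their reads are a trace in polyA libraries. Of these, 18 had counts, and 2 rose and 0 fell in the authors' deposited table, against 6.67% and 9.15% of all genes tested. The median log2 change of the 17 with a fold was 0.90, with a range of -1.38 to 1.96 and 2 below 0. Levels were low, with a median of 1.42 FPKM in Col-0 over the 18 entries. Of the 18, 14 reached a mean count of 10 in 1 or both genotypes. Their summed share of the counts was 0.00602% in Col-0 and 0.0119% in mee45.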
